A study of Mus musculus with 6 samples.

Results

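Rcc1 and Kpna2 are 2 of the 332 mouse genes in the deposited table of liver RNA-seq values. They were taken by symbol, 1 row each, and had been chosen by their size of change between gigantol and vehicle livers in this same table, so their levels below are a description and carry no test. Rcc1 averaged 73.2 CPM in gigantol livers against 7.11 CPM in vehicle livers, and Kpna2 17.4 against 0.397 CPM, where CPM is a gene's reads per 1000000 reads of its library. The livers came from 6 male Kunming mice, an outbred stock, aged 6 to 8 weeks and weighing 20 to 28 g. By random assignment 3 mice were dosed orally with gigantol at 10 mg/kg and the other 3 with a matching volume of vehicle, and all were killed 4 h later. Gigantol is a bibenzyl of Dendrobium orchids that the series title names as an agonist of PPARα and PPARγ. Apart from the sample titles, the labels name no genetic modification for either group, and 1 batch label covers all 6 livers. The titles read PANC1-OE for the gigantol group and PANC1-Vector for the vehicle group. This wording could be read as overexpression against an empty vector and conflicts with the treatment labels, which were followed here.

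Ran is a small GTPase whose GTP-bound form is concentrated in the nucleus. Rcc1 sits on chromatin and loads Ran with GTP there, while the GTPase-activating protein Rangap1 acts in the cytoplasm, and the resulting gradient gives nuclear transport its direction. Kpna2 is an importin alpha: it binds the classical nuclear localisation signal of a cargo, passes the pore with importin beta, gives up its load when RanGTP binds importin beta, and is carried back out by the exportin Cse1l. In dividing cells the same gradient frees spindle factors from importins around chromosomes. Adult hepatocytes rarely divide, and both genes are usually found at higher levels in proliferating cells.

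Rcc1 (ENSMUSG00000028896) is placed by the table on chromosome 4 from 132059230 to 132080916, minus strand, on a mouse build that the sources used here do not name. Its span of 21687 bases is the same as in the GENCODE M21 annotation of GRCm38, where the gene runs from 132331919 to 132353605 and has 8 annotated transcripts, as many as the table lists. Kpna2 (ENSMUSG00000018362) is placed on chromosome 11 from 106879455 to 106890367, minus strand, and its span of 10913 bases and its 7 transcripts likewise equal those of GRCm38 (106988629 to 106999541). Since the members differed together between the groups, the 250 bases before each RefSeq start are shown, on GRCm38.p6 and 5′ to 3′ on the minus strand. Capitals mark matches to the motifs searched. The Rcc1 window is chr4:132345751-132346000 and the Kpna2 window is chr11:106999526-106999775. The RefSeq start of Rcc1 lies 7.86 kb inside the GENCODE gene: 4 of its 8 transcripts start within 100 bases of it and 2 start upstream, so the window describes an internal start. That of Kpna2 lies 16 bases inside the gene, with 3 of 7 transcripts starting within 100 bases and 0 upstream.
Rcc1: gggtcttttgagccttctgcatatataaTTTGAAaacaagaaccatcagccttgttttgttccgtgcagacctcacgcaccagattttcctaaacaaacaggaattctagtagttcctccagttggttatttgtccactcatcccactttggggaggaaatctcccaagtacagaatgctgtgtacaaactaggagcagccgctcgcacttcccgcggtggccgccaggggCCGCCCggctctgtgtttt
Kpna2: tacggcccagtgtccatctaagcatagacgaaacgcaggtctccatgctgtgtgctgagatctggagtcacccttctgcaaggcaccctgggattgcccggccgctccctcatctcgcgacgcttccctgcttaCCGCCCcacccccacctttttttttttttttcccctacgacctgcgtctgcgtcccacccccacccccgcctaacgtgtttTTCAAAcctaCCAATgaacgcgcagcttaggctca

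Both windows hold TTTGAA, the core of the cell cycle homology region (CHR) found in many promoters of mitotic genes. It lies 222 bases before the start on the gene's strand in Rcc1, and 35 bases before the start on the other strand in Kpna2. These letters occur on either strand in 16.0% of the 32851 RefSeq promoter windows of the same length. Both windows also hold the GC box GGGCGG, at 19 bases before the start in Rcc1 and 116 in Kpna2, which 32.7% of all windows hold. Kpna2 alone has a CCAAT box (CCAAT, 33.8% of all windows), 25 bases before the start. Neither window holds the E-box CACGTG, the E2F letters TTTCGCGC or TTTGGCGC, the TATA box TATAAA, or the DR1 consensus, a direct repeat of the kind that PPAR and RXR bind. All motifs were sought on both strands, and no 2 matches overlapped. Of all windows 6.02%, 0.256%, 0.417%, 12.4% and 0.0335% hold these 5 in the order given. GC content was 49.6% for Rcc1 and 57.6% for Kpna2, against a median of 52.4% over all windows. These matches describe letters in the windows, and no binding was measured.

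For both genes other sequence bears on what the counts mean. Rcc1 overlaps 4 annotated genes. Its exons share 135 bases, 3.51% of its exon bases, with Snhg3, the host RNA of the snoRNAs Snora73a and Snora73b, on the same strand, and 19 bases with Gm17300 on the opposite strand. The shared Snhg3 bases lie in 2 of the 8 Rcc1 transcripts. No transcript of another gene matched the longest Rcc1 transcript at 90% identity or more over 300 bases. The longest Kpna2 transcript of 2054 bases, in contrast, matched 11 other annotated genes at that limit, 9 of them processed pseudogenes. The closest were Gm10184 on chromosome 17, annotated as protein-coding and identical at 99.9% of 1968 aligned bases, and Gm10259 on chromosome 3, identical at 99.8% of 1590. Of the 1955 windows of 100 bases in that transcript, 88.2% occur unchanged in Gm10184 and 64.2% in Gm10259. The first 60 coding bases, from the start codon at chr11:106997312 on GRCm38, show how little separates them, with bases that differ from Kpna2 in capitals.
Kpna2: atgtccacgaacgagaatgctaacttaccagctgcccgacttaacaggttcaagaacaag
Gm10184: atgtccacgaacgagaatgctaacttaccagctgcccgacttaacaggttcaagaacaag
Gm10259: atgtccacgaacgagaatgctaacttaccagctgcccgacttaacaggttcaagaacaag
Gm12919: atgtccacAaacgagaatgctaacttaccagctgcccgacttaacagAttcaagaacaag

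Gm10184 and Gm10259 have the same 60 bases as Kpna2, and Gm12919, identical to Kpna2 at 96.9% of the bases aligned, differs at 2. None of the 11 copies and none of the 4 genes that overlap Rcc1 is among the 332 rows, so their levels were not analysed here. The sources used here do not say how the authors counted reads that fit several genes, or whether they used strand. The Kpna2 values are therefore uncertain as to which of these genes gave the reads. The Rcc1 values are exposed to this over a small part of its exon bases, but the share of its reads that fell there is not known.

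Rcc1 read 83.9, 65.0 and 70.8 CPM in gigantol replicates 1, 2 and 3, and 9.25, 6.06 and 6.03 CPM in vehicle replicates 1, 2 and 3. The 3 gigantol livers lay close together and far above the vehicle livers, with the lowest gigantol liver at 7.03 times the highest vehicle liver. The means were 73.2 ± 9.68 against 7.11 ± 1.85 CPM (SD, n = 3 each), a ratio of 10.3, and the log2(CPM + 1) difference from limma was 3.21 ± 0.444 (SE). About 1385 to 1782 reads stood behind each gigantol value and 139 to 247 behind each vehicle value. Exact Clopper-Pearson 95% intervals, which cover counting error only, ran from 61.6 to 68.5 CPM for the lowest gigantol liver and from 8.13 to 10.5 CPM for the highest vehicle liver.

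Kpna2 read 21.8, 11.2 and 19.2 CPM in gigantol replicates 1, 2 and 3, and 0.112, 0.039 and 1.04 CPM in vehicle replicates 1, 2 and 3. Every gigantol liver again lay above every vehicle liver, the lowest at 10.7 times the highest. Vehicle replicates 1 and 2 held about 3 and 1 reads, at or under the 3 reads that bound a count of 0, whereas vehicle replicate 3 held about 24 (1.04 CPM, exact 95% interval 0.667 to 1.55). The intervals of the other two, 0.0232 to 0.328 and 0.00099 to 0.218 CPM, do not reach that of vehicle replicate 3. The gigantol livers held about 238 to 472 reads each. The means were 17.4 ± 5.54 against 0.397 ± 0.559 CPM (SD, n = 3 each), a ratio of 43.8, and the log2(CPM + 1) difference from limma was 3.74 ± 0.415 (SE).

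The size of the Kpna2 ratio turned on vehicle replicate 3. Without that liver the vehicle mean was 0.0755 CPM and rested on 4 reads in 2 livers. The ratio of pooled reads per library size was then 228, with an exact 95% counting interval of 88.9 to 839, against 47.0 (32.3 to 71.0) with all 3 vehicle livers. The ratio of means of Kpna2 was 230 without vehicle replicate 3. It ran from 30.2 (without vehicle replicate 2) to 51.6 (without gigantol replicate 2) when any other liver was left out. For Rcc1 the ratio of means stayed between 9.55 and 12.1 whichever liver was left out, lowest without gigantol replicate 1 and highest without vehicle replicate 1.

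**Figure D1:**
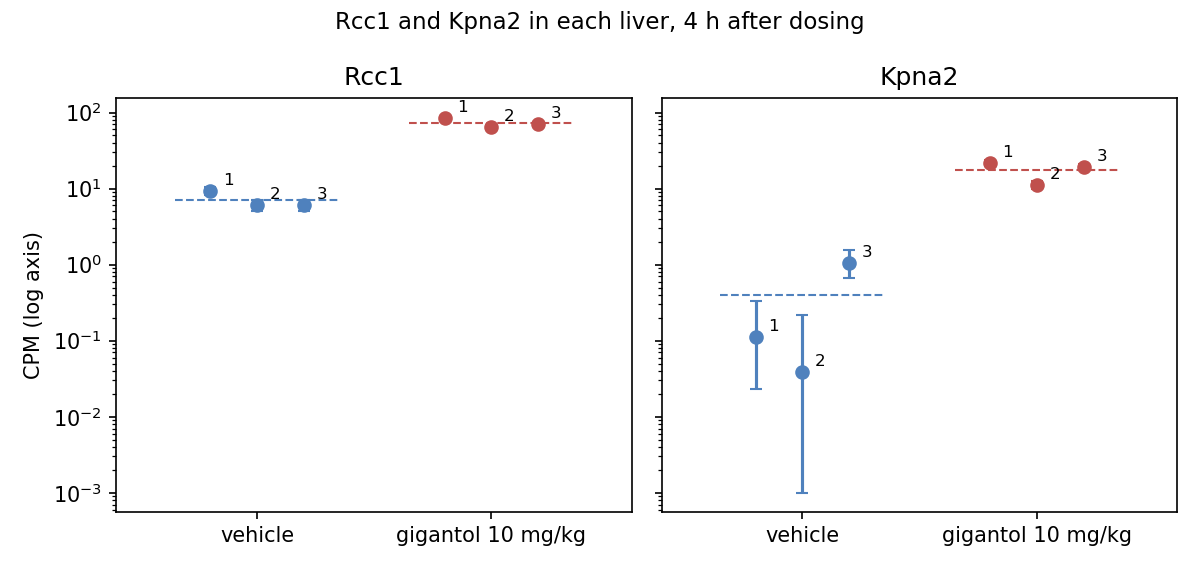
Levels of Rcc1 (left) and Kpna2 (right) in each liver, in CPM on a log axis. Points are livers with their replicate number, bars are exact 95% counting intervals and dashed lines are group means. The gigantol livers sit at 65.0 to 83.9 CPM for Rcc1 and 11.2 to 21.8 CPM for Kpna2, above all vehicle livers, and vehicle replicate 3 stands above the other vehicle livers for Kpna2.

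Replicate spread differed between the members. The coefficient of variation of Rcc1 was 13.2% among gigantol livers and 26.0% among vehicle livers, where counting alone would give 2.47% and 7.45%. That of Kpna2 was 31.9% and 141%, where counting alone would give 5.06% and 32.7%. Kpna2 thus varied more between livers than Rcc1 in both groups, in relative terms. On the log2(CPM + 1) scale the pooled SD within groups was 0.257 for Rcc1 and 0.509 for Kpna2. The limma SEs above do not follow this order, because limma draws each gene's variance toward a trend over all tested rows. The highest gigantol liver exceeded the lowest 1.29 times for Rcc1 and 1.95 times for Kpna2. Among vehicle livers the same ratio was 1.53 for Rcc1 and, on 1 read against 24, 26.7 for Kpna2.

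Scaled to the annotated exon length, 3.85 kb for Rcc1 and 2.87 kb for Kpna2, the exchange factor had the higher value in every liver. Its mean was 19.0 CPM per kb against 6.05 for Kpna2 in gigantol livers and 1.85 against 0.138 in vehicle livers. In single livers the per-kb ratio of Rcc1 to Kpna2 was 2.87, 4.34 and 2.76 in gigantol replicates 1, 2 and 3. It was 4.32 in vehicle replicate 3 (exact 95% counting interval 2.79 to 6.98). In vehicle replicates 1 and 2, where Kpna2 had 3 reads and 1 read, the ratios of 61.7 and 116 have counting intervals of 20.8 to 300.0 and 20.5 to 4600.0 and fix little beyond their lower ends. Reads that also fit the near-identical Kpna2 copies may have been added or dropped, so the true order of the transcripts is uncertain. In bulk tissue, fewer cells that express a gene and less of its RNA per cell cannot be told apart.

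The values that had chosen the members were those of the authors' deposited table. It gave Rcc1 a log2 fold change of 3.37 with an FDR of 2.06e-40, the lowest of all rows, and Kpna2 a log2 fold change of 5.46 with an FDR of 0.00107, the 38th lowest. Both members are therefore among the 34 of 332 rows (10.2%) that were higher at an FDR under 0.05 in the authors' deposited table. They are also among the 23.5% of rows, 78 of 332, in which the lowest gigantol liver exceeded the highest vehicle liver. By limma 40 of the 201 rows with at least 1 CPM in 3 livers (19.9%) were higher at an adjusted p under 0.05. Rows are in the table only with a p up to 0.0499 and a log2 fold change of 1.00 or more in size on these same livers, so nothing is read from these shares.

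By size of the authors' deposited log2 fold change, Kpna2 was 11th and Rcc1 18th of the 119 rows that were higher, whose median was 1.48. Of the 81 rows with a mean over the 6 livers at least as high as that of Kpna2 (8.89 CPM), a single one had a larger upward fold change, the ribosomal protein pseudogene Rps2-ps13. The same row was the only larger one among the 32 rows at or above the mean of Rcc1 (40.2 CPM). Rps2-ps13 read 157 and 202 CPM in gigantol replicates 1 and 2 but 0 in gigantol replicate 3, and the authors' deposited table gives its FDR as 0.322. By absolute fold change the next larger row to Rcc1 was ENSMUSG00000095779, which has no symbol, at 0.549 ± 0.540 against 0.050 ± 0.0866 CPM. The next smaller was Hsd3b5, a steroid dehydrogenase of male mouse liver, at 22.5 ± 5.34 against 2.36 ± 0.778 CPM. For Kpna2 they were the pseudogene Gm48417, at 0.773 ± 0.296 against 0.0123 ± 0.0214 CPM, and Slc19a3, a thiamine transporter, at 0.0583 ± 0.0509 against 1.83 ± 1.6 CPM (gigantol against vehicle, SD, n = 3 each).

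**Figure D2:**
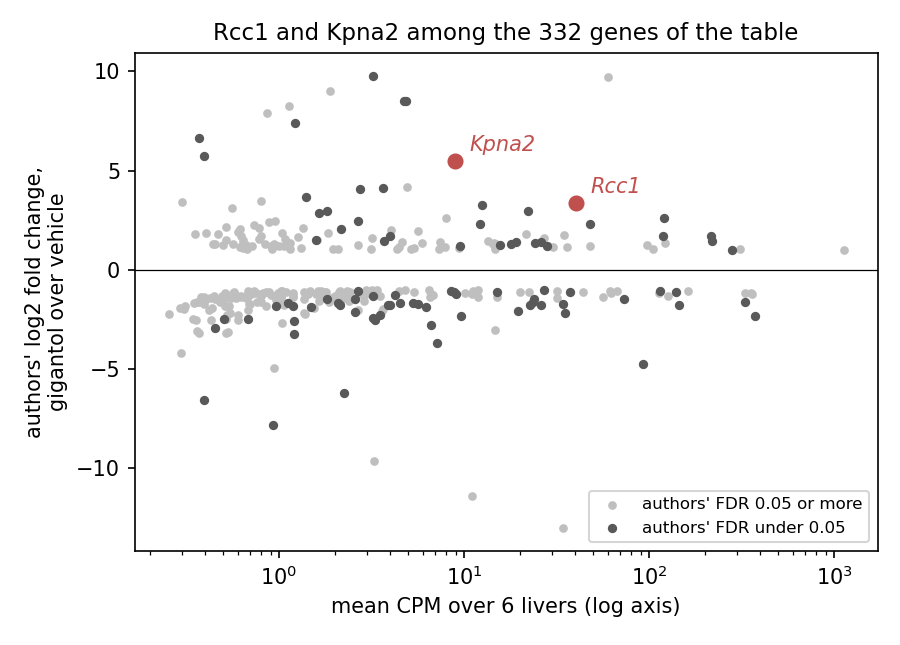
The authors' log2 fold change, gigantol over vehicle, against the mean CPM over 6 livers on a log axis for all 332 rows, each point a gene. Dark points have an FDR under 0.05 in the authors' deposited table. Kpna2 (5.46) and Rcc1 (3.37) lie above nearly all rows of their own level or higher.

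The rest of the listed transport machinery was outside the table. The table holds 332 rows, against 13192 genes that the authors adjusted over, so nothing is read from this absence. Of 69 symbols in lists of the Ran cycle, importins, exportins and nuclear pore, Rcc1 and Kpna2 were the 2 among the rows, both higher at an FDR under 0.05 in the authors' deposited table. Within these lists Rcc1 was 1 of 14 Ran cycle genes and Kpna2 1 of 20 importins, while 0 of 7 exportins and 0 of 29 nuclear pore genes were rows. Ran itself, Rangap1, Kpnb1 (importin beta) and Cse1l were thus not analysed here. Of 19 genes with RCC1-type repeats Rcc1 was the single row, and of 19 spindle and chromatin partners, such as the importin alpha cargo Tpx2, there was none. In the KEGG pathway column of the table, Kpna2 was the single gene under nucleocytoplasmic transport.

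Markers of dividing cells gave little to set beside the members. Of 36 proliferation genes, with Mki67, Top2a and the Mcm helicase subunits among them, Cdkn1a was the 1 row. Cdkn1a, which encodes the cell cycle inhibitor p21, read 22.8, 10.5 and 28.9 CPM in gigantol replicates 1, 2 and 3 against 14.0, 5.55 and 4.86 in vehicle replicates 1, 2 and 3. Its groups overlapped, and the FDR listed for it in the authors' deposited table was 0.210. Of 20 Myc and ribosome biogenesis genes the 1 row was Myc, the growth-promoting transcription factor, at 2.21, 7.32 and 2.48 CPM in the gigantol livers against 6.67, 9.93 and 11.3 CPM in the vehicle livers. Its groups overlapped as well, and the authors' deposited table lists its FDR as 0.325. By limma on log2(CPM + 1) the difference of Myc was −1.16 ± 0.446 (SE, adjusted p = 0.0476), among the 71 of 201 rows (35.3%) called lower, and that of Cdkn1a was 1.28 ± 0.524 (adjusted p = 0.053), which was not called. Without a single liver the limma adjusted p of Myc ran from 0.0141 to 0.151, above 0.05 without gigantol replicates 1 or 3 or vehicle replicates 2 or 3. That of Cdkn1a ran from 0.0249 to 0.164, under 0.05 without gigantol replicate 2 or vehicle replicate 1. With the replicate block the limma adjusted p was 0.0398 for Cdkn1a and 0.0386 for Myc. With 0.1 or 5 added to CPM in place of 1, the Myc call was lost (limma adjusted p = 0.0523 and 0.0543). With 0.5 it was kept (0.0489). All 201 rows had been selected for a group difference on these same livers, so these adjusted p-values are a description and not a test.

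The annotation columns of the table list few terms for both members, which does not show that their functions are separate. Rcc1 carries 27 gene ontology terms and Kpna2 18, of which they share 3, all cell compartments (nucleus, nucleoplasm and cytoplasm), and no process term. Of the 10 process terms of Rcc1, 6 occur in no other row, including Ran protein signal transduction and spindle assembly. Its broad cell cycle term is shared with 5 rows, Txnip, Smpd3, Cdkn1a, Dusp1 and Setdb2. Of the 6 process terms of Kpna2, 4 occur in no other row, and protein import into nucleus is shared with Txnip, Cdkn1a and Arntl.

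Likeness was measured as Pearson's r of log2(CPM + 1) over the 6 livers, among the 201 rows with at least 1 CPM in 3 livers. For Rcc1 the 5 most alike were Capza1-ps1 (r = 0.980), BC018473 (0.979), Fam81a (0.973), Inhbe (0.970) and Kpna2 (0.968). For Kpna2 they were Inhbe (r = 0.985), Capza1-ps1 (0.981), Fam81a (0.980), Rcc1 (0.968) and BC018473 (0.963). The same 6 genes thus make up both sets. Every row was selected for a group difference on these livers, so r is high throughout: the median absolute r of all tested rows was 0.816 with Rcc1 and 0.785 with Kpna2.

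Inhbe, which encodes the activin E subunit secreted by hepatocytes, read 40.8, 31.7 and 44.4 CPM in gigantol livers against 17.7, 16.0 and 18.0 in vehicle livers. Fam81a was at 2.34 ± 0.483 against 0.824 ± 0.0425 CPM (SD, n = 3 each). Capza1-ps1, an actin-capping protein pseudogene, read 14.0, 5.26 and 9.23 CPM in gigantol livers against 0, 0.078 and 0 in vehicle livers. BC018473, annotated as an antisense transcript, read 6.92, 9.15 and 12.8 CPM against 0.075, 0 and 0. In all 4 the groups did not overlap, as in 78 of all 332 rows (23.5%) with the gigantol livers higher. Among the dosed livers 5 of the 6 genes, Rcc1 and Kpna2 included, were lowest in gigantol replicate 2, and BC018473 was lowest in gigantol replicate 1. The 4 genes were chosen for likeness over these same livers, so nothing is read from these counts.

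**Figure D3:**
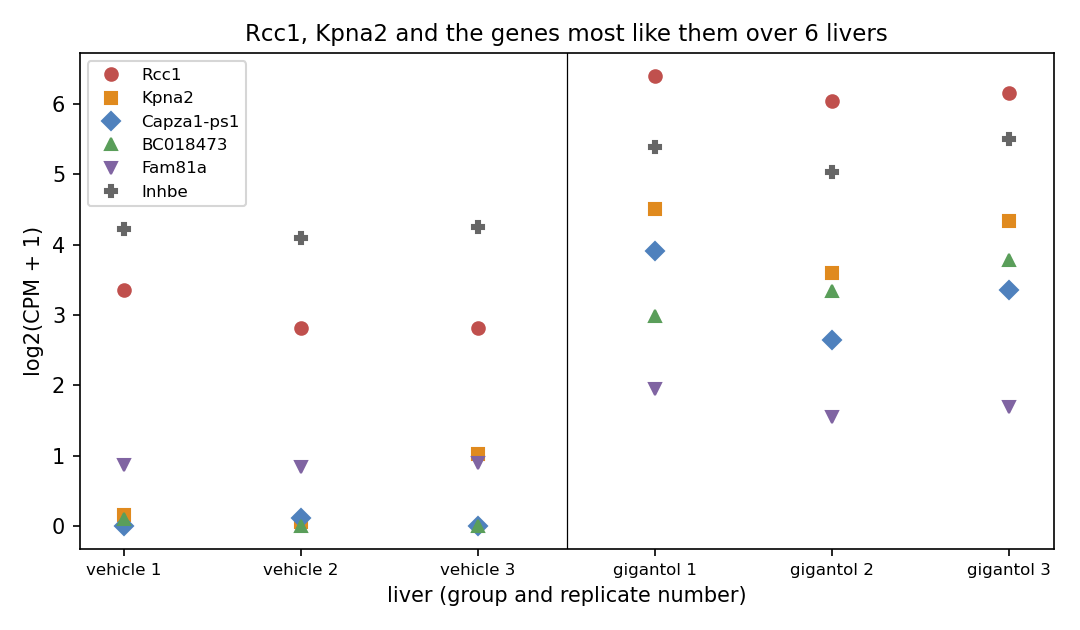
Values of log2(CPM + 1) in each liver for Rcc1, Kpna2 and the 4 other genes most like them. Each symbol is a gene, and vehicle livers stand left of the line and gigantol livers right of it. All 6 genes are higher in every gigantol liver, and Kpna2, at 1.04 CPM, leaves the other near-zero genes in vehicle replicate 3.

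Once each group's mean was removed, the r of the members' deviations over the 6 livers was 0.0187, a value from few points and given as a description. The median absolute r of deviations over all tested rows was 0.593 with Rcc1 and 0.401 with Kpna2. Among the genes named above as most alike, the highest r of deviations was 0.745 for Kpna2, with Inhbe. For Rcc1 it was 0.501, with Fam81a, which is under the median just given. BC018473 went the other way, at −0.177 with Rcc1 and −0.127 with Kpna2. Among gigantol livers both were highest in replicate 1 and lowest in replicate 2, at log2 deviations of 0.20 and −0.16 for Rcc1 and 0.36 and −0.55 for Kpna2. Among vehicle livers Rcc1 was highest in replicate 1 (0.36) and Kpna2 in replicate 3 (0.62), where Rcc1 stood at −0.18.

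Few of the 332 rows lay near either member. Genes outside the table could not be seen, so nothing is read from the absence of neighbours. Within 1000000 bases of Rcc1 the table holds A930004J17Rik, 449 kb away, at 1.35 ± 0.143 against 0.539 ± 0.187 CPM, and Tmem200b, a transmembrane protein gene 409 kb away, at 0.547 ± 0.198 against 1.34 ± 0.303 CPM (gigantol against vehicle, SD, n = 3 each). The gigantol livers all lay above the vehicle livers for A930004J17Rik, as in 78 of all 332 rows (23.5%). For Tmem200b they all lay below. The share of all rows with that pattern was not counted, and 213 of the 332 rows were lower, so nothing is read from it. By limma on log2(CPM + 1) the differences were 0.61 ± 0.175 and −0.60 ± 0.186 (SE, adjusted p = 0.0206 and 0.0271), whereas the authors' deposited table lists FDRs of 0.204 and 0.299, which did not pass. Of the 201 rows tested by limma, 40 (19.9%) were called higher and 71 (35.3%) lower, all selected on these same livers. The limma calls of both neighbours were lost without vehicle replicate 2 (adjusted p = 0.123 and 0.0805) or 3 (0.110 and 0.096). That of Tmem200b was also lost without gigantol replicate 3 (limma adjusted p = 0.108). No other row lies within 1000000 bases of Kpna2.

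Of 45 markers of liver and other cells 8 were rows, of which 2, Marco and Hba-a2, passed. Lower at an FDR under 0.05 in the authors' deposited table were 52 of all 332 rows (15.7%). None of 6 hepatocyte, 5 endothelial, 4 cholangiocyte, 4 neutrophil and 6 exocrine pancreas markers was among them, so the labelled tissue could not be checked against hepatocyte markers here. Of 6 Kupffer and macrophage markers the scavenger receptor Marco was a row, at 1.54 to 3.71 CPM in gigantol and 8.21 to 8.89 CPM in vehicle livers, and it fell (FDR 0.000107 in the authors' deposited table). The 2 of 5 stellate markers, Lrat and Des, summed to 6.81 to 11.9 against 13.1 to 24.5 CPM, and the authors' deposited table lists their FDRs as 0.121 and 0.136. The 4 of 5 erythroid markers, all globins, summed to 347 to 632 against 552 to 1910 CPM, ranges that overlap. Of these Hba-a2 fell (FDR 0.000966 in the authors' deposited table), while the same table lists 0.491, 0.196 and 0.257 for Hba-a1, Hbb-bs and Hbb-bt, none of which passed. Of 4 T and B cell markers Cd79a was a row, at 0.141 to 0.282 against 0.347 to 0.749 CPM, for which the authors' deposited table lists an FDR of 0.576. All 8 means were lower in the gigantol livers, the direction of 213 of all 332 rows, whereas those of Rcc1 and Kpna2 were higher. The part of these cells in the result was not tested. No marker that was a row was at 0 in any group.

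**Figure D4:**
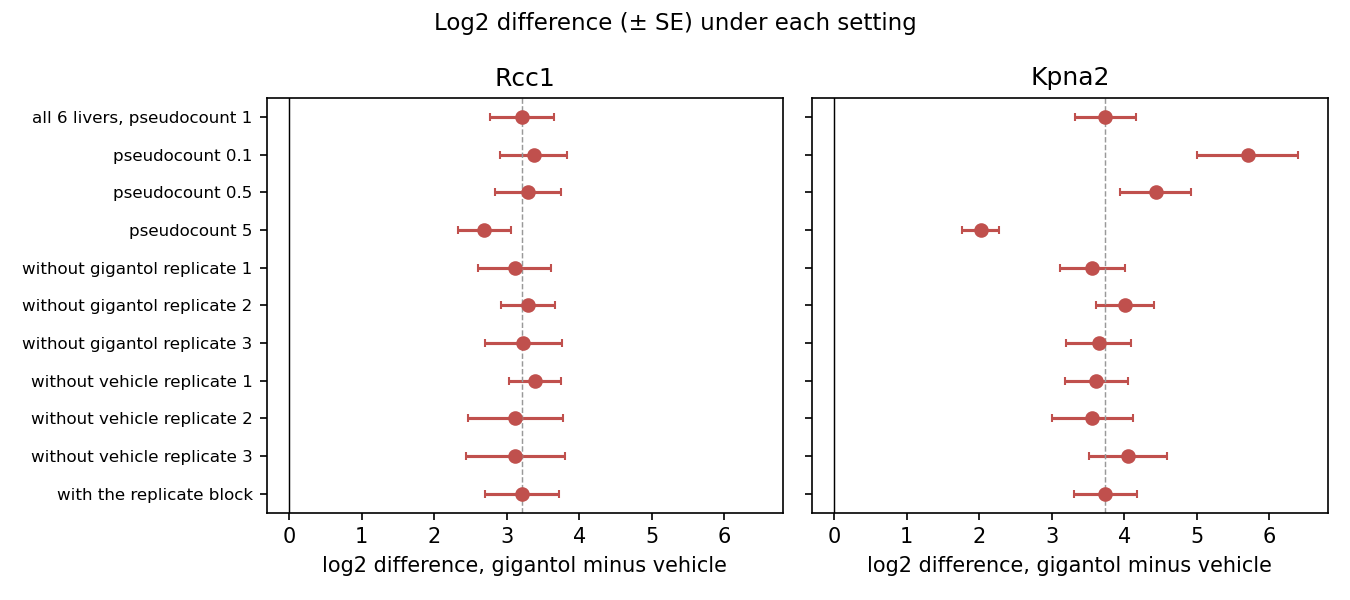
Log2 difference, gigantol minus vehicle, with its SE from limma, for Rcc1 (left) and Kpna2 (right) under each setting. The value for all 6 livers and a pseudocount of 1 is the dashed line. The pseudocount moves Kpna2 from 2.02 to 5.70, while leaving out a liver moves it from 3.56 to 4.05 and Rcc1 from 3.11 to 3.39.

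On the log scale the members' order depended on the pseudocount, the constant added to CPM before taking logs. With a pseudocount of 0.1, near the value of a few reads, the difference was 5.70 ± 0.696 for Kpna2 and 3.37 ± 0.460 for Rcc1. With a pseudocount of 5 it was 2.02 ± 0.257 for Kpna2 and 2.69 ± 0.362 for Rcc1, the reverse order. Both members kept a positive difference under every setting plotted. The sign could not have changed, because every gigantol liver lay above every vehicle liver for both, so nothing is read from it.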

How the data were processed

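Stranded, ribosomal RNA-depleted libraries of total liver RNA were made, per the labels' protocols. The tools fastp, HISAT2 and DESeq2 1.16.1 and the build GRCh38 come from the submitters' processing notes, although all 332 gene IDs are mouse and the sample titles name PANC1, a human line. Groups follow the treatment label that goes with each title. The sources used here name no read counter.

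The deposited values are CPM, a unit read from the values: each library's low values are whole multiples of 1 step within 0.1 reads (100% of those under about 200 reads). The steps gave depths of 21200000 to 26700000 reads, 0.0374 to 0.0471 CPM per read and a 3-read floor of 0.112 to 0.141 CPM. Values are rounded, and no count test was run on reads so worked out. The log2 fold change, p-value and FDR columns were deposited as the authors computed them; they adjusted over 13192 genes, as the ratio of FDR to p shows.

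limma 3.58.1 (R 4.3.3; trended, robust, two-sided) was fitted to log2(CPM + 1) of the 201 rows with at least 1 CPM in 3 livers, both members included, with Benjamini-Hochberg adjustment at 0.05, and checked on simulated data. No p is given for the members. The members, lists and motifs were chosen with earlier results of these data known. Genes named are the members, list genes in the table, rows within 1000000 bases, the 5 most alike per member and neighbours in fold rank. Each row named as a copy of a member would also have been named, and there were 0. Alternatives were other pseudocounts, no low-value filter, leaving out each liver, and the replicate block; edgeR and DESeq2 on recovered reads were planned and not run.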

Additional observations from a re-analysis of the deposited data

How the results depend on the processing

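The log2 difference of Rcc1 was 2.69 with a pseudocount of 5, and that of Kpna2 was 5.70, 4.43 and 2.02 with pseudocounts of 0.1, 0.5 and 5, against 3.21 and 3.74 with 1. The cause lies in the constant itself, which weighs most on the low vehicle levels. With 1 liver left out, Rcc1 ranged from 3.11 to 3.39 and Kpna2 from 3.56 to 4.05. The number of rows past the limma threshold, 111 with all livers, was 169 without the low-value filter (332 rows tested in place of 201), and ranged from 32 to 136 with 1 liver left out. Leaving out gigantol replicate 1 or 3 gave 57 or 60, and leaving out vehicle replicate 2 or 3 gave 32 or 35; the cause was not tested. Deviations of same-numbered livers had r of 0.128, 0.149 and −0.105 for numbers 1, 2 and 3. Differently numbered livers ranged from −0.166 to 0.149. No pairing by number showed in these values, which are too weak to exclude one. With the replicate block the count was 128, and the differences of Rcc1 and Kpna2 were 3.21 ± 0.506 and 3.74 ± 0.432 (SE). Of 120 values of the other 12 named genes under these settings, 0 changed direction, 91 kept their side of the threshold (or, for genes not tested, moved by less than the replicate spread), 20 lost it, 3 gained it and 6 untested values moved by more than that spread. Keeping a call did not mean keeping a value: Capza1-ps1 ran from 1.48 to 6.20 over the pseudocounts and BC018473 from 1.52 to 6.29. Kpna2 rests on 3 and 1 reads in vehicle replicates 1 and 2, whose libraries were not shallower than the other livers'. The planned count tests on recovered reads (edgeR, DESeq2) were not run.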

Other observations

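Some transcripts were nearly absent from a whole group. After the values were seen, rows were counted that held at most 3 reads in every liver of a group and at least 10 reads in every liver of the other. There were 6 such rows nearly absent from the vehicle livers: BC018473, Capza1-ps1, Gm7292, Gm14253, Gm4767 and Gm48417. Of these, 3 were pseudogenes and 1 was protein-coding. Gm7292, a long noncoding RNA, read 2.02 to 10.1 CPM in gigantol livers and was at 0 in all vehicle livers, and Gm14253, a processed pseudogene, read 1.13 to 3.29 against 0 to 0.039 CPM. Another 4 rows were nearly absent from the gigantol livers, Gm6644, Tspyl5, Gm6166 and Mtus2, of which 2 were pseudogenes. Gm6644 was at 0 in all gigantol livers and read 0.651 to 0.861 CPM in vehicle livers. Kpna2 met the condition in vehicle replicates 1 and 2 and missed it through the 24 reads of vehicle replicate 3.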
